A study of Mus musculus with 10 samples.

Results

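The 38 genes described here act in mitosis: they build the centromere and kinetochore, run the spindle checkpoint, drive the spindle and complete chromosome separation and cell division. They were taken by gene symbol from the deposited expression table of an Rbfox2 knockdown study, where all 38 of 38 were found under their own symbols among 26857 entries. The study used V6.5 mouse embryonic stem cells, a pluripotent cell line grown in serum and leukaemia inhibitory factor on gelatin. Rbfox2 regulates splicing by binding the sequence GCAUG in pre-mRNA.

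Knockdown cells carried 1 of 2 lentiviral short hairpin RNAs against Rbfox2, shFox2-2 or shFox2-1, and control cells carried a hairpin against green fluorescent protein (shGFP) or luciferase (shLuc), which mouse cells lack. Every hairpin was introduced by infection in duplicate, followed by 3 days in 1 µg/ml puromycin and 24 hours without it, so the 4 groups share infection, drug selection and harvest time. Polyadenylated RNA from the 8 cultures was sequenced, and the table gives 1 pooled value per hairpin in FPKM, a fragment count scaled to transcript length and library size, with a confidence interval. In a second experiment cells carried doxycycline-induced human RBFOX2, with a FLAG-HA tag (FHFOX2) or untagged (UntagFOX2), and RNA crosslinked to the protein was sequenced by iCLIP after 24 hours of induction, 1 library each. Both lines had been selected for 6 days in 150 µg/ml hygromycin, and the untagged library was given 7 more PCR cycles than the 16 of the tagged one, so that folds and absences of coverage compare libraries amplified to different extents. The iCLIP values therefore describe an introduced human protein. In a population of cells, fewer cells in mitosis and less RNA per mitotic cell cannot be told apart.

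During mitosis the kinetochore assembles on centromeres that carry a variant histone and holds spindle microtubules through its outer layer. The spindle checkpoint delays anaphase until each kinetochore is attached, by holding back Cdc20, the activator of the anaphase-promoting complex. Many genes of this programme are transcribed late in the cell cycle under complexes that recognise the cell cycle homology region and, together with NF-Y, the CCAAT box near the start site. Embryonic stem cells divide rapidly and carry much of this RNA at any time.

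The promoters of 10 genes are shown. Cenpf, Cenpe, Kif18a, Kif11, Ttk, Bub1, Top2a and Anln are the 8 genes that lay below both controls in shFox2-2 cells. Cdc20 and Ccnb1 are the 2 that were higher in shFox2-2 than in shFox2-1 cells after centring. That count was near the share of expressed entries (5.26% of the 38, against 5.76%). Each window runs from 250 bases before to 50 after the RefSeq start site in the GRCm38.p6 build, 5′ to 3′ on the gene's strand. Capitals mark TTTGAA, the core of the cell cycle homology region, and CCAAT, the NF-Y box, or their reverse complements TTCAAA and ATTGG.
Cenpf (chr1:189688037-189688336, minus strand): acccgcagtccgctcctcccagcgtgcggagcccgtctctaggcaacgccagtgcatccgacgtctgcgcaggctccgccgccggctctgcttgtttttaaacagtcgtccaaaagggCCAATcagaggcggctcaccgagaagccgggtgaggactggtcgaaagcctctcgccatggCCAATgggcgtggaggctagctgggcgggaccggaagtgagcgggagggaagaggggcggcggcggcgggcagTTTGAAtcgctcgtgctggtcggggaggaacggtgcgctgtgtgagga
Cenpe (chr3:135212313-135212612, plus strand): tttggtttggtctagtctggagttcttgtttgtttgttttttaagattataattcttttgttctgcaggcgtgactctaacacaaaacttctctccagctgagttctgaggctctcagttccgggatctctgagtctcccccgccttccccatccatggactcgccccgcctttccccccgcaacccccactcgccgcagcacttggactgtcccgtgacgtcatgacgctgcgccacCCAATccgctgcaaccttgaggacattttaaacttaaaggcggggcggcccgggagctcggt
Kif18a (chr2:109280488-109280787, plus strand): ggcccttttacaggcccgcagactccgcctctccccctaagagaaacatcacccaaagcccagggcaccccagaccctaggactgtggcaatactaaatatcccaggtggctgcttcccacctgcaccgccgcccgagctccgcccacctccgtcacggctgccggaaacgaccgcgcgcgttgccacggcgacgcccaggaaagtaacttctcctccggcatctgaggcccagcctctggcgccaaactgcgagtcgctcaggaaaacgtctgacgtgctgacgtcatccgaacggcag
Kif11 (chr19:37376132-37376431, plus strand): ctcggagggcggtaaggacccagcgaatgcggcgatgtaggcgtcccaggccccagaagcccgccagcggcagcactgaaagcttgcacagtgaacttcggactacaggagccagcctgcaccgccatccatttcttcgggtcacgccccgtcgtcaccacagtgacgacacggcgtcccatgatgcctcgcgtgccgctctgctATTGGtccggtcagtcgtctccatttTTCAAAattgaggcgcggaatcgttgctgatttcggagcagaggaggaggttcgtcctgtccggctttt
Ttk (chr9:83834439-83834738, plus strand): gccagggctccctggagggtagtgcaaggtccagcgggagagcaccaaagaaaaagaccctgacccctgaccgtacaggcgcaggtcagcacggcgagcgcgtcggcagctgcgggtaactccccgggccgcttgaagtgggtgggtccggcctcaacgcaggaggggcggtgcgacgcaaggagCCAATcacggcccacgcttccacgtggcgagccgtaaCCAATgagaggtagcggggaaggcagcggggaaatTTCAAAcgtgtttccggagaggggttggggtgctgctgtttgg
Bub1 (chr2:127831810-127832109, minus strand): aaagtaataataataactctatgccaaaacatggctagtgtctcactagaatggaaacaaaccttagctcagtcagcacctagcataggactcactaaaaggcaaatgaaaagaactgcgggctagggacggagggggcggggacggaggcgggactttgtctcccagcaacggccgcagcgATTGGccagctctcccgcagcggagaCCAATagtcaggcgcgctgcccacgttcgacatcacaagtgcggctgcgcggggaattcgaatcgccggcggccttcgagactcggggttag
Top2a (chr11:99024140-99024439, minus strand): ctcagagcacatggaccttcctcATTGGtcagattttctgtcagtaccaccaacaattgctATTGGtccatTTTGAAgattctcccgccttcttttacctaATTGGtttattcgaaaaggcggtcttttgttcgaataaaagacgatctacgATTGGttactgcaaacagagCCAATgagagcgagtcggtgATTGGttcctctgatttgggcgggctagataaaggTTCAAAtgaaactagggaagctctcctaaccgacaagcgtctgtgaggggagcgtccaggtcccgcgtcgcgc
Anln (chr9:22389157-22389456, minus strand): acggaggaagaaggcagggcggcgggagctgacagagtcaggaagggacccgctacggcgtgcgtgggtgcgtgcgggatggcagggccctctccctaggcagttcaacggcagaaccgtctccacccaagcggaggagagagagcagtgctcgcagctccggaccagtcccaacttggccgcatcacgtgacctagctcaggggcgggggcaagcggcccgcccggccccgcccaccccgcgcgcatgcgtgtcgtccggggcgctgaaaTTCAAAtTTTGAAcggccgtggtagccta
Cdc20 (chr4:118437294-118437593, minus strand): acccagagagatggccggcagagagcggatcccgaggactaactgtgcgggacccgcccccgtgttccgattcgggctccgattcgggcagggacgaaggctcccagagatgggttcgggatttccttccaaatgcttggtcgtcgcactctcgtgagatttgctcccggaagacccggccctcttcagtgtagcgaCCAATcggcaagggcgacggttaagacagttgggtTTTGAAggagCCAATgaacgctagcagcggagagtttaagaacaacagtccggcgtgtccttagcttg
Ccnb1 (chr13:100786437-100786736, minus strand): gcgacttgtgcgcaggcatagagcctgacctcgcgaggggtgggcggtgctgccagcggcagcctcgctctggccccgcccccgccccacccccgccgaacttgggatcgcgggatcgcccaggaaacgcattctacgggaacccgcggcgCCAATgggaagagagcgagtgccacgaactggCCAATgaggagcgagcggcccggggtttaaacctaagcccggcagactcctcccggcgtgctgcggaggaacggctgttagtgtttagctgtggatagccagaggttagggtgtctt

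A promoter window was found for 33 of the 38 genes, 38 windows in all because some genes have several start sites, and Kif20a, Ccna2, Tpx2, Incenp and Aurkb have none here. Both motifs were searched on both strands, and no pair of matches overlapped in these windows (0 pairs). TTTGAA was present in 24 of the 38 windows (63.2%), against 11.6% of the 10893 windows of expressed genes and 17.9% of all 32851 windows in the table. Matches that start within 50 bases of the start site were found in 22 of the 38 windows (57.9%), against 3.08% of the windows of expressed genes. CCAAT was present in 30 windows (78.9%), against 37.9% for expressed genes, and both motifs stood together in 21 windows (55.3%), against 4.74%. The 30 matches to TTTGAA lay around the start site, with a median position of -1.5 bases, and the 55 CCAAT matches lay upstream of it, with a median of -58 bases and 51 of them before it. Windows of Bub3, Ect2 and Prc1 overlap, and with each genomic position counted once there were 26 TTTGAA and 49 CCAAT matches. A match is a run of letters in the sequence and does not show that a factor binds there.

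**Figure D1:**
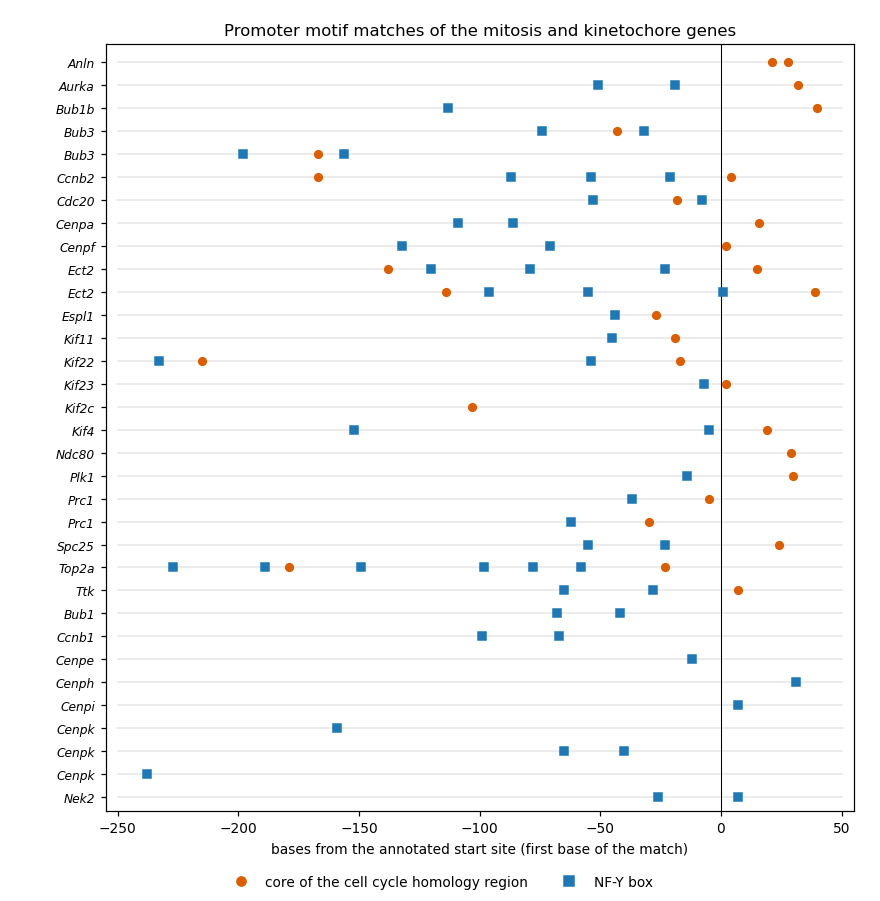
Matches to the core of the cell cycle homology region (circles) and to the NF-Y box (squares) by distance in bases from the annotated start site (0). Each row is 1 promoter window with at least 1 match; genes with several start sites have several rows, and 5 windows with neither motif are not drawn. The circles gather around 0, with a median of -1.5 bases, and the squares lie mostly to the left, with a median of -58 bases.

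Among gene lists that hold none of the 38, TTTGAA was found in 52.8% of the windows of other spindle and cytokinesis genes, 38.9% of condensin and cohesin genes and 35.7% of other kinetochore genes. The share was 29.4% for regulators of mitotic transcription and entry, 20.0% for the anaphase-promoting complex and 16.0% for DNA replication genes. The share of the 38 genes was above that of each of these 6 lists. The medians with and without the motif were close: the 21 genes with TTTGAA had a median difference of -0.32 between shFox2-2 and shFox2-1 on the log2(FPKM + 1) scale, and the 12 genes with a window but no TTTGAA had a median of -0.35. Of the printed promoters, TTTGAA is present in 5 of the 8 genes below both controls in shFox2-2 cells (Cenpf, Kif11, Ttk, Top2a and Anln) and in Cdc20, and no match was found in Cenpe, Bub1, Kif18a and Ccnb1.

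All 38 genes were expressed, taken as a mean of at least 1 FPKM over the 4 hairpins, as were 12632 entries of the table. Their mean levels ran between 6.601 FPKM for Kif4 and 111.8 FPKM for Cdc20, and 36 of the 38 lay above the median expressed entry at 7.81 FPKM. Depth is unknown, since the table gives no counts, but the median distance of the interval's bounds from the value over these genes was 14.2% in shFox2-2, 11.9% in shFox2-1, 11.2% in shGFP and 10.5% in shLuc cells. The knockdown itself was present in both hairpins: Rbfox2 (listed as Rbm9) had 7.21 FPKM in shFox2-2 and 8.56 FPKM in shFox2-1 cells, against 23.3 FPKM in shGFP and 24.7 FPKM in shLuc cells. Of the ES cell markers 8 of 8 were expressed, and of 7 fibroblast markers 2 passed 1 FPKM.

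The libraries differed in scale. The median difference of shFox2-2 minus shFox2-1 over the 12632 expressed entries was -0.15 on the log2(FPKM + 1) scale. The counts of genes whose intervals differ are therefore also given after each hairpin was centred on its own median over expressed entries.

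Knockdown against control gave no calls among these genes. The limma test of the 2 knockdown against the 2 control hairpins on log2(FPKM + 1), fitted over 20281 entries, called 0 of the 38 at an adjusted p under 0.05, as it did for 0.00% of all entries. With 0 of 20281 entries called in cells where Rbfox2 itself fell, this count does not show that the 38 genes were unchanged. At an unadjusted p under 0.05 it also called 0 of the 38, against 4.48% of all entries. The lowest unadjusted p was 0.0753 for Nusap1 (adjusted p = 0.978 by limma). With the fit limited to expressed entries, 0 of the 38 were called, against 0.00792% of entries at the adjusted threshold and 4.28% at the unadjusted one. The median knockdown minus control difference was -0.06 over the 38 genes and -0.01 over all expressed entries, with 14 genes positive and 24 negative. This median depended on the hairpin: it was -0.21 without shFox2-1, 0.12 without shFox2-2, -0.16 without shLuc and 0.00296 without shGFP.

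Intervals of both knockdown hairpins together gave no calls either. In 0 of the 38 genes did both knockdown intervals lie above both control intervals, against 0.174% of expressed entries, and in 0 did both lie below, against 0.119%. After centring both counts were again 0, against 0.245% and 0.0633%. With shares this low over expressed entries, a count of 0 among 38 genes says nothing particular about them. By the order of the 4 values alone, Cenpa, Incenp, Tpx2 and Prc1 were higher in both knockdown hairpins (4 of 38, against 14.3% of expressed entries) and Bub3, Plk1, Kif22 and Nusap1 were lower in both (4 of 38, against 17.8%). After centring the names changed: Cenph, Cenpi and Ect2 were higher in both (3 of 38, against 18.0%), and Ndc80, Kif4, Kif22 and Nusap1 were lower in both (4 of 38, against 17.7%).

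The knockdown hairpins differed from each other in 17 of the 38 genes as deposited and in 11 after centring. As deposited all 17 were lower in shFox2-2 than in shFox2-1 cells, against 13.0% of expressed entries lower and 1.97% higher. The median difference was -0.32 over the 38 genes, against -0.15 over expressed entries, and 31 genes were negative and 7 positive (27 and 11 after centring). After centring, 9 genes were lower in shFox2-2 (Cenpe, Cenpf, Bub1, Mad2l1, Ttk, Kif11, Kif18a, Top2a and Anln), against 5.42% of expressed entries, and Cdc20 and Ccnb1 were higher, against 5.76%. The centred median was -0.14, against 0.02 over expressed entries. Each hairpin is 1 value here, so these are comparisons of pooled cultures with no test.

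Each knockdown hairpin was also set against the control hairpins, which both comparisons share. The shFox2-2 interval lay below both control intervals in 8 genes (Cenpe, Cenpf, Bub1, Ttk, Kif11, Kif18a, Top2a and Anln), against 1.98% of expressed entries, and above both in 0, against 0.348%. After centring it lay below in 6 genes, without Ttk and Anln, against 0.887%, and above in 0, against 1.90%. Without shLuc as a control the count below was 13, and the share over expressed entries was not computed for that rule. The shFox2-1 interval lay above both control intervals in Cenpf, Mad2l1 and Kif23 (3 of 38, against 5.44% of expressed entries) and below both in 0, against 2.11%. After centring 1 gene, Mad2l1, lay above, against 3.33%, and 0 lay below, against 3.16%. Without shGFP as a control the count above was 7, again with no share over expressed entries computed. The control hairpins differed from each other in 1 gene, Ect2, which was higher in shGFP than in shLuc cells, against 0.997% of expressed entries higher and 0.190% lower; after centring it was 0 genes, against 0.198% and 0.467%.

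**Figure D2:**
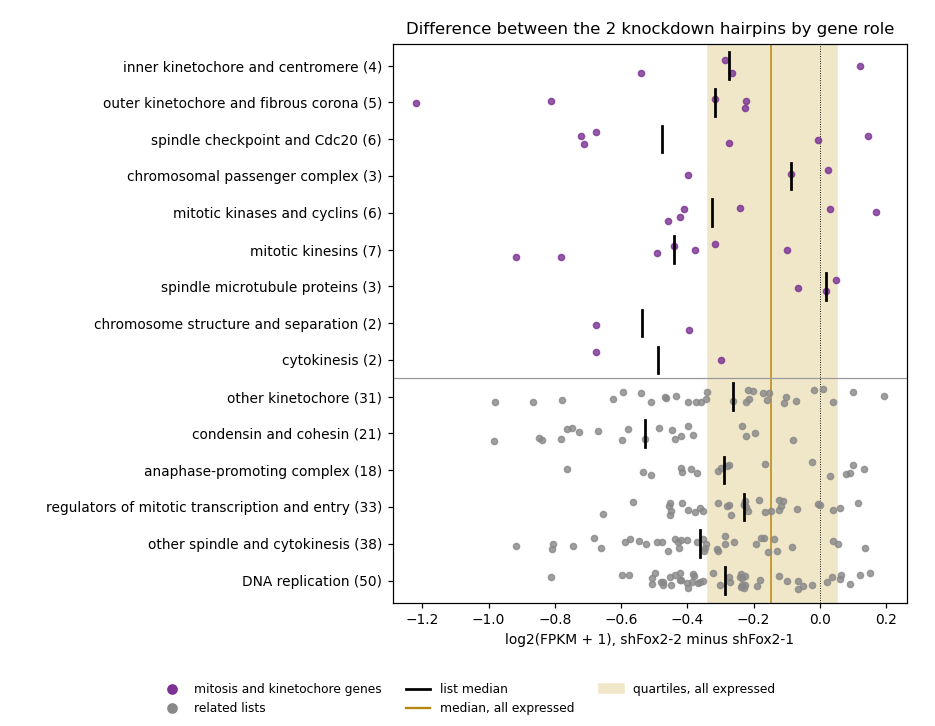
Difference between the knockdown hairpins, shFox2-2 minus shFox2-1, on the log2(FPKM + 1) scale. Each point is 1 gene, grouped by role for the 38 genes (purple) and by related list (grey), with the number of genes in brackets; black bars are list medians, and the gold line and band are the median and quartiles of all 12632 expressed entries. The medians run between -0.54 for chromosome structure and separation and 0.02 for the spindle microtubule proteins, and Cenpf is the lowest point at -1.22.

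The 4 genes of the inner kinetochore and centromere gave intervals that overlapped between all hairpins. Cenpa, the histone H3 variant that marks centromeric chromatin, had 30.4 FPKM in shFox2-2 and 27.8 FPKM in shFox2-1 cells, against 26.8 FPKM in shGFP and 27.5 FPKM in shLuc cells. Cenph, a subunit of the centromere network that stays on chromatin through the cycle, had 22.9 FPKM in shFox2-2 and 27.8 FPKM in shFox2-1 cells, against 20.0 FPKM in shGFP and 23.8 FPKM in shLuc cells. Its partner Cenpi had 9.68 FPKM in shFox2-2 and 12.01 FPKM in shFox2-1 cells, against 9.43 FPKM in shGFP and 10.03 FPKM in shLuc cells. Cenph and Cenpi were highest in shFox2-1 cells. Cenpk, of the same network, had 6.98 FPKM in shFox2-2 and 10.6 FPKM in shFox2-1 cells, against 8.18 FPKM in shGFP and 9.73 FPKM in shLuc cells. The table marks Cenpi, Cenpk, Ndc80 and Incenp as resting on low data in some hairpin.

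Of the outer kinetochore genes, Ndc80, Nuf2 and Spc25 of its microtubule-binding complex had overlapping intervals. Cenpe and Cenpf, of its outermost layer, the fibrous corona, were low in shFox2-2 cells. Over related genes this was not a division by layer. The corona genes Zw10, Zwilch and Kntc1 were not called in any comparison, and Knl1, the platform for Bub1, lay below both controls in shFox2-2 cells. Ndc80, which gives that complex its name and binds the microtubule, had 16.7 FPKM in shFox2-2 and 21.1 FPKM in shFox2-1 cells, against 21.4 FPKM in shGFP and 20.6 FPKM in shLuc cells. Nuf2, its coiled-coil partner, had 25.8 FPKM in shFox2-2 and 30.3 FPKM in shFox2-1 cells, against 27.6 FPKM in shGFP and 29.1 FPKM in shLuc cells. Spc25, which anchors the complex at the kinetochore, had 36.8 FPKM in shFox2-2 and 43.2 FPKM in shFox2-1 cells, against 39.4 FPKM in shGFP and 39.6 FPKM in shLuc cells. In these 3 genes shFox2-2 was the lowest value and all intervals overlapped. The corona protein Cenpf (mm9 chr1:191464484-191511965) had 6.77 FPKM in shFox2-2 and 17.1 FPKM in shFox2-1 cells, against 13.1 FPKM in shGFP and 13.2 FPKM in shLuc cells. Cenpe, the kinetochore kinesin that carries chromosomes to the metaphase plate (mm9 chr3:134875526-134936504), had 4.79 FPKM in shFox2-2 and 9.17 FPKM in shFox2-1 cells, against 8.45 FPKM in shGFP and 7.24 FPKM in shLuc cells. Cenpf in shFox2-2 cells was at 39.6% of its level in shFox2-1 cells and 51.5% of the control mean, and in shFox2-1 cells it was at 130.1% of the control mean, with shFox2-1 above and shFox2-2 below both control intervals. After centring, shFox2-2 remained below both and shFox2-1 no longer lay above. Cenpe in shFox2-2 cells was at 52.3% of shFox2-1 and 61.1% of the control mean. The knockdown minus control fold change of Cenpf was -0.25 with a standard error of 0.39, the knockdown hairpins lying on either side of the controls.

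In the spindle checkpoint Bub1 and Ttk lay below both controls in shFox2-2 cells, and Mad2l1 lay above both in shFox2-1 cells. Calls of the second kind were near the share of expressed entries, at 7.89% of the 38 genes against 5.44%. After centring they were 2.63% against 3.33%. Bub1, the kinase that recruits the other checkpoint proteins to kinetochores, had 15.8 FPKM in shFox2-2 and 25.8 FPKM in shFox2-1 cells, against 24.3 FPKM in shGFP and 24.0 FPKM in shLuc cells. Ttk, the kinase that starts checkpoint signalling, had 8.53 FPKM in shFox2-2 and 14.6 FPKM in shFox2-1 cells, against 13.1 FPKM in shGFP and 13.6 FPKM in shLuc cells. For both, the other 3 hairpins overlapped and shFox2-2 stood alone, at 65.3% of the control mean for Bub1 and 64.1% for Ttk. Mad2l1, which sequesters Cdc20, had 15.4 FPKM in shFox2-2 and 26.1 FPKM in shFox2-1 cells, against 16.99 FPKM in shGFP and 17.7 FPKM in shLuc cells. Here shFox2-1 stood apart at 150.2% of the control mean, and shFox2-2 overlapped the controls. The knockdown minus control difference of Mad2l1, 0.20 over both hairpins, was -0.16 without shFox2-1.

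The intervals of the rest of the checkpoint overlapped between the knockdown hairpins. Bub1b, the BubR1 protein of the inhibitory complex, had 29.1 FPKM in shFox2-2 and 35.4 FPKM in shFox2-1 cells, against 37.3 FPKM in shGFP and 32.2 FPKM in shLuc cells. Bub3, which tethers Bub1 and Bub1b, had 24.3 FPKM in shFox2-2 and 24.5 FPKM in shFox2-1 cells, against 29.8 FPKM in shGFP and 24.7 FPKM in shLuc cells. Cdc20, the target of the checkpoint, had 120.02 FPKM in shFox2-2 and 108.5 FPKM in shFox2-1 cells, against 117.0 FPKM in shGFP and 101.8 FPKM in shLuc cells. The shFox2-2 interval of Bub1b lay below that of shGFP and overlapped that of shLuc. Cdc20 had the highest mean level of the 38 genes, and after centring its shFox2-2 interval lay above that of shFox2-1. Its locus overlaps the entry of Elovl1.

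**Figure D3:**
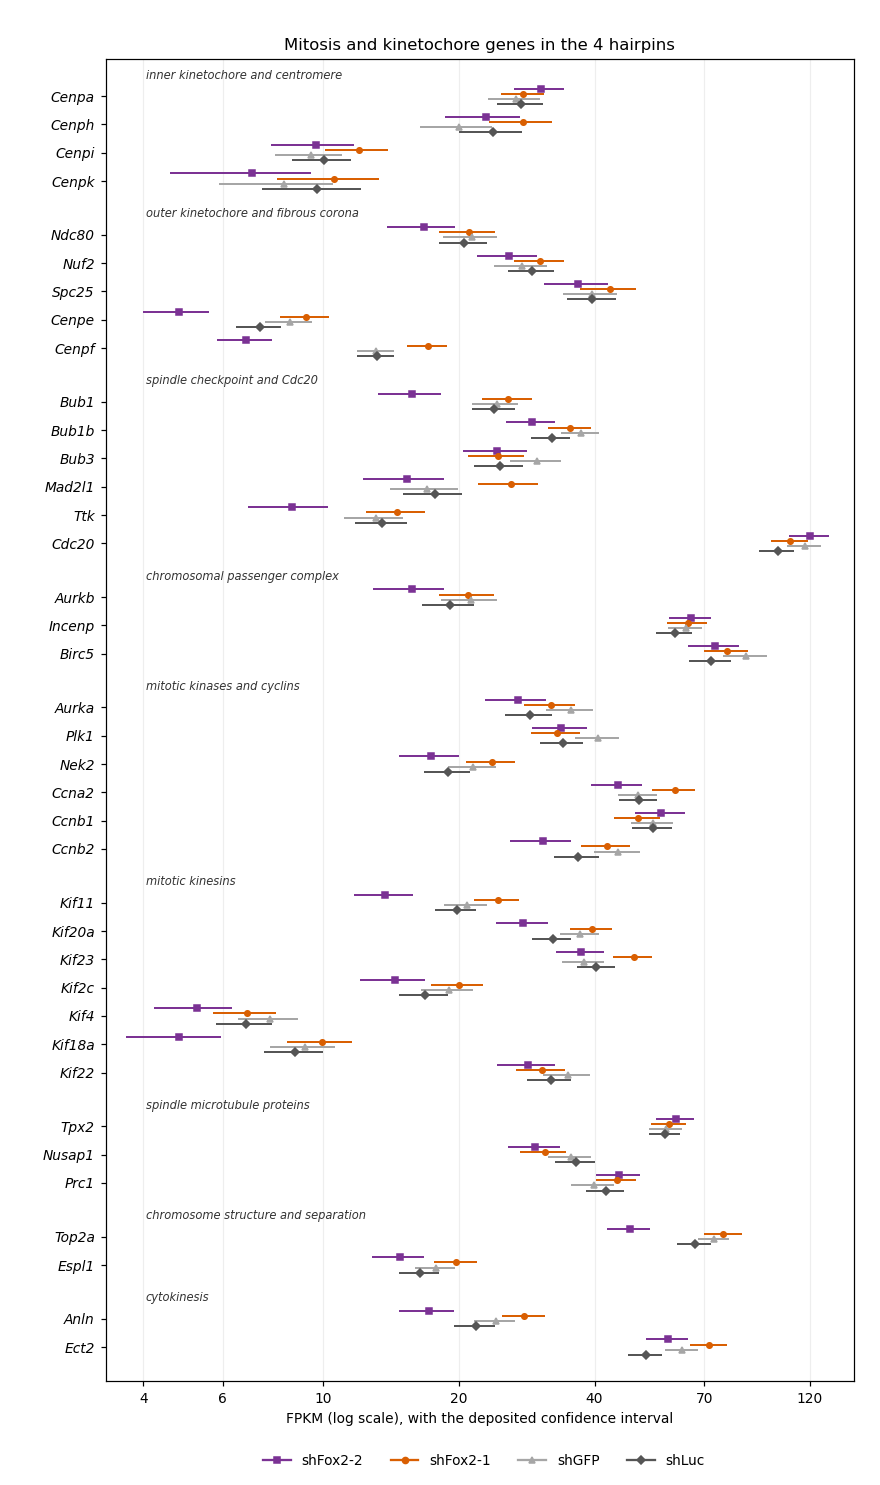
FPKM of the 38 genes (log axis) in shFox2-2, shFox2-1, shGFP and shLuc cells, ordered by role. Points are the deposited pooled values and lines the deposited confidence intervals. The shFox2-2 interval of Cenpf, around 6.77 FPKM, lies left of both controls, at 13.1 and 13.2 FPKM, and its shFox2-1 interval, around 17.1 FPKM, lies right of them; the 4 intervals of Tpx2 and of Incenp lie together.

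The chromosomal passenger complex corrects faulty attachments and later guides cytokinesis, and its 3 genes had overlapping intervals in every pair of hairpins compared. Aurkb, its kinase, had 15.7 FPKM in shFox2-2 and 21.0 FPKM in shFox2-1 cells, against 21.2 FPKM in shGFP and 19.1 FPKM in shLuc cells. Incenp, its scaffold, had 65.4 FPKM in shFox2-2 and 64.4 FPKM in shFox2-1 cells, against 63.8 FPKM in shGFP and 60.3 FPKM in shLuc cells. Birc5, the targeting subunit survivin, had 74.0 FPKM in shFox2-2 and 78.6 FPKM in shFox2-1 cells, against 86.7 FPKM in shGFP and 72.5 FPKM in shLuc cells. The median shFox2-2 minus shFox2-1 difference of the complex was -0.09, and only Aurkb of the 3 had shFox2-2 as its lowest hairpin.

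Of the 6 mitotic kinases and cyclins, 3 were lower in shFox2-2 than in shFox2-1 cells as deposited and 0 after centring. The shares over expressed entries were 13.0% and 5.42%. Nek2, a centrosome kinase, had 17.4 FPKM in shFox2-2 and 23.7 FPKM in shFox2-1 cells, against 21.5 FPKM in shGFP and 18.9 FPKM in shLuc cells. Cyclin A2 (Ccna2) had 45.1 FPKM in shFox2-2 and 60.3 FPKM in shFox2-1 cells, against 50.04 FPKM in shGFP and 50.2 FPKM in shLuc cells. Cyclin B2 (Ccnb2) had 30.7 FPKM in shFox2-2 and 42.5 FPKM in shFox2-1 cells, against 45.2 FPKM in shGFP and 36.7 FPKM in shLuc cells. The controls lay between the knockdown hairpins for Nek2 and Ccna2, and for Ccnb2 the shGFP value lay above both. Cyclin B1 (Ccnb1), which drives entry into mitosis with Cdk1, went the other way, with 56.2 FPKM in shFox2-2 and 49.9 FPKM in shFox2-1 cells, against 53.96 FPKM in shGFP and 53.8 FPKM in shLuc cells. Its shFox2-2 interval was above that of shFox2-1 after centring and not before, a call made in 5.26% of the 38 genes and 5.76% of expressed entries. Aurka, the centrosome and spindle kinase, had 27.01 FPKM in shFox2-2 and 32.1 FPKM in shFox2-1 cells, against 35.4 FPKM in shGFP and 28.7 FPKM in shLuc cells. Plk1, a kinase needed at each stage of mitosis, had 33.8 FPKM in shFox2-2 and 33.0 FPKM in shFox2-1 cells, against 40.7 FPKM in shGFP and 34.0 FPKM in shLuc cells. Aurka and Plk1 were highest in shGFP cells, and the shFox2-2 interval of Aurka lay below that of shGFP but not that of shLuc. The locus of Ccna2 overlaps that of Exosc9.

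Of the mitotic kinesins, 5 of 7 were lower in shFox2-2 than in shFox2-1 cells as deposited, against 13.0% of expressed entries. After centring it was 2 of 7, against 5.42%. Kif11, the Eg5 motor that pushes spindle poles apart (mm9 chr19:37450892-37496349), had 13.8 FPKM in shFox2-2 and 24.4 FPKM in shFox2-1 cells, against 20.8 FPKM in shGFP and 19.8 FPKM in shLuc cells. Kif18a, which dampens chromosome movement at the plate (mm9 chr2:109120894-109181904), had 4.80 FPKM in shFox2-2 and 9.96 FPKM in shFox2-1 cells, against 9.12 FPKM in shGFP and 8.69 FPKM in shLuc cells. In shFox2-2 cells Kif11 was at 67.7% and Kif18a at 53.9% of their control means, and both lay below both controls with and without centring. The knockdown minus control difference of Kif18a, -0.31, was 0.15 without shFox2-2. Kif4, the chromokinesin and the gene of lowest mean level, had 5.25 FPKM in shFox2-2 and 6.78 FPKM in shFox2-1 cells, against 7.63 FPKM in shGFP and 6.74 FPKM in shLuc cells. Here the shFox2-2 interval lay below that of shGFP and overlapped those of shFox2-1 and shLuc.

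The kinesins of the central spindle and of the kinetochore differed between the knockdown hairpins before centring. Kif20a, which brings the passenger complex to the central spindle, had 27.8 FPKM in shFox2-2 and 39.5 FPKM in shFox2-1 cells, against 37.2 FPKM in shGFP and 32.3 FPKM in shLuc cells. Kif23, the motor of centralspindlin, had 37.4 FPKM in shFox2-2 and 48.8 FPKM in shFox2-1 cells, against 37.9 FPKM in shGFP and 40.4 FPKM in shLuc cells. Kif2c, which depolymerises microtubules at wrongly attached kinetochores, had 14.5 FPKM in shFox2-2 and 20.0 FPKM in shFox2-1 cells, against 19.0 FPKM in shGFP and 16.8 FPKM in shLuc cells. Kif23 was the one of these whose shFox2-1 interval lay above both controls, and this ended after centring. Kif22, which pushes chromosome arms towards the equator, had 28.5 FPKM in shFox2-2 and 30.6 FPKM in shFox2-1 cells, against 34.9 FPKM in shGFP and 32.0 FPKM in shLuc cells. The loci of Kif11, Kif20a, Kif4 and, among the spindle proteins, Nusap1 overlap other entries of the table, and no source used here states whether counting used strand.

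Of the 3 spindle microtubule proteins, 0 differed between the knockdown hairpins, with a median difference of 0.02 as deposited and 0.21 after centring. Tpx2, which activates Aurka on the spindle, had 60.6 FPKM in shFox2-2 and 58.5 FPKM in shFox2-1 cells, against 57.5 FPKM in shGFP and 57.4 FPKM in shLuc cells. Prc1, which bundles the antiparallel microtubules of the midzone, had 45.4 FPKM in shFox2-2 and 44.8 FPKM in shFox2-1 cells, against 39.8 FPKM in shGFP and 42.4 FPKM in shLuc cells. Nusap1, a microtubule-bundling protein near chromosomes, had 29.6 FPKM in shFox2-2 and 31.0 FPKM in shFox2-1 cells, against 35.4 FPKM in shGFP and 36.3 FPKM in shLuc cells. Tpx2 and Prc1 were higher in both knockdown hairpins and Nusap1 lower in both, by order of the values as deposited, with intervals that overlapped; after centring Nusap1 kept this order and Tpx2 and Prc1 did not. The knockdown minus control difference of Nusap1 was -0.24 with a standard error of 0.11, the lowest unadjusted p of the 38 as given above.

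Both genes of chromosome structure and separation, and both of cytokinesis, were lower in shFox2-2 than in shFox2-1 cells as deposited, against 13.0% of expressed entries. Top2a, the topoisomerase that untangles sister DNA (mm9 chr11:98854716-98885429), had 47.9 FPKM in shFox2-2 and 77.2 FPKM in shFox2-1 cells, against 73.7 FPKM in shGFP and 66.7 FPKM in shLuc cells. Anln, the actin-binding protein anillin of the contractile ring (mm9 chr9:22136455-22193632), had 17.2 FPKM in shFox2-2 and 28.0 FPKM in shFox2-1 cells, against 24.2 FPKM in shGFP and 21.8 FPKM in shLuc cells. Top2a in shFox2-2 cells was at 68.3% and Anln at 74.6% of their control means, and Top2a kept this place below both controls after centring. Espl1, the protease separase that cuts cohesin, had 14.8 FPKM in shFox2-2 and 19.8 FPKM in shFox2-1 cells, against 17.8 FPKM in shGFP and 16.4 FPKM in shLuc cells. Ect2, which activates RhoA at the cleavage site, had 58.2 FPKM in shFox2-2 and 71.9 FPKM in shFox2-1 cells, against 62.5 FPKM in shGFP and 51.9 FPKM in shLuc cells. Ect2 was lowest in shLuc cells, and its 2 controls differed from each other by their intervals before centring.

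Within the 38 genes the signed difference between the knockdown hairpins went moderately with level and with locus length. Spearman's rho of the shFox2-2 minus shFox2-1 difference was 0.59 with mean FPKM and -0.40 with locus length over the 38 genes, against -0.05 and -0.06 over all expressed entries. These are descriptions across genes, which share libraries and are not replicates. The mean FPKM contains both knockdown values, so its relation to their difference is partly built in, and level and length were not separated from each other. The 8 genes below both controls in shFox2-2 cells had a median locus length of 46.5 kb and a median level of 16.1 FPKM, against 20.0 kb and 32.3 FPKM for the other 30. Among loci under 20 kb, 4 of 15 genes (26.7%) were lower in shFox2-2 than in shFox2-1 cells, against 8.96% of expressed entries of that length. Between 20 and 40 kb it was 7 of 12 genes (58.3%), against 16.2%, and between 40 and 110 kb it was 6 of 11 genes (54.5%), against 19.3%. After centring the counts were 1 of 15 (6.67%, against 3.40%), 3 of 12 (25%, against 6.31%) and 5 of 11 (45.5%, against 9.06%). Mad2l1, with a locus of 5.52 kb, was the shortest gene, and its difference was -0.72 on the log2(FPKM + 1) scale.

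**Figure D4:**
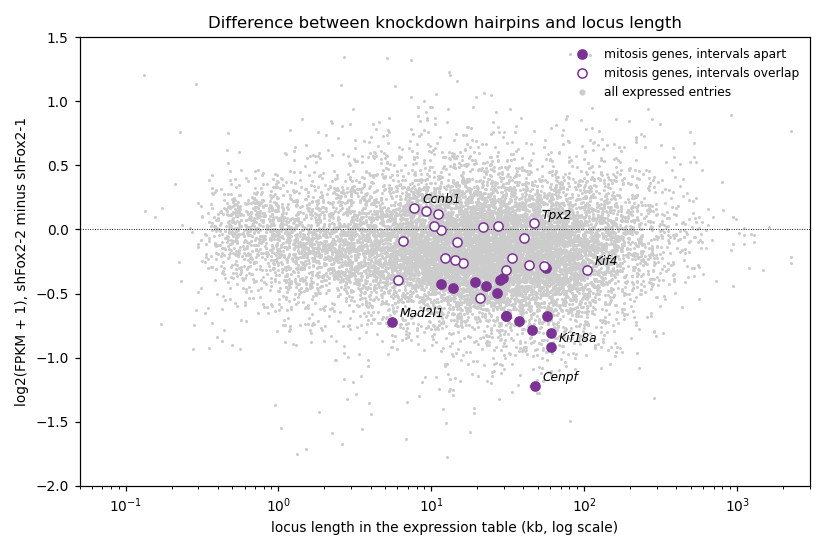
Difference shFox2-2 minus shFox2-1 on the log2(FPKM + 1) scale against locus length in kb (log axis) for the 38 genes (purple) and all expressed entries (grey). Filled circles are the 17 genes whose intervals did not overlap; 6 grey entries lie beyond the vertical axis. The filled circles lie mostly above 20 kb, with Cenpf lowest at -1.22 and Mad2l1, at 5.52 kb, apart from the rest.

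Related genes outside the 38 were set against the share of expressed entries lower in shFox2-2 than in shFox2-1 cells. That share was 13.0% as deposited and 5.42% after centring. Of 21 condensin and cohesin genes found, 13 were lower in shFox2-2 than in shFox2-1 cells as deposited (61.9%) and 11 after centring (52.4%). Their median difference was -0.53, below that of the 38 genes. Smc2, the condensin ATPase, had 12.4 FPKM in shFox2-2 and 25.6 FPKM in shFox2-1 cells, against 20.8 FPKM in shGFP and 20.8 FPKM in shLuc cells. Smc3, of cohesin, had 19.4 FPKM in shFox2-2 and 35.5 FPKM in shFox2-1 cells, against 34.2 FPKM in shGFP and 31.2 FPKM in shLuc cells. Rad21, the cohesin subunit that separase cuts, had 39.0 FPKM in shFox2-2 and 67.7 FPKM in shFox2-1 cells, against 51.7 FPKM in shGFP and 47.7 FPKM in shLuc cells. Smc2 and Smc3 lay below both controls in shFox2-2 cells, and Rad21 above both in shFox2-1 cells. Other spindle and cytokinesis genes had 16 of 38 lower in shFox2-2 than in shFox2-1 cells (42.1%), 7 after centring (18.4%), with a median of -0.36. Among them Mki67, which coats mitotic chromosomes, had 10.1 FPKM in shFox2-2 and 20.0 FPKM in shFox2-1 cells, against 18.7 FPKM in shGFP and 19.3 FPKM in shLuc cells. Aspm, a spindle pole protein, had 6.14 FPKM in shFox2-2 and 11.5 FPKM in shFox2-1 cells, against 9.08 FPKM in shGFP and 8.99 FPKM in shLuc cells, so that, as for Cenpf, the hairpins lay on either side of both controls.

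Other kinetochore genes gave 7 of 31 lower in shFox2-2 than in shFox2-1 cells (22.6%), 3 after centring (9.68%), with a median of -0.26. Knl1 (listed as Casc5), the platform for Bub1, had 4.39 FPKM in shFox2-2 and 8.82 FPKM in shFox2-1 cells, against 7.46 FPKM in shGFP and 7.47 FPKM in shLuc cells. The anaphase-promoting complex had 4 of 18 lower (22.2%), 2 after centring (11.1%). Its shFox2-2 interval lay above both controls in 1 of 18 genes, against 0.348% of expressed entries, and below both in 0. After centring it lay above in 3 (16.7%, against 1.90%) and below in 0. Cdc23, the 1 above as deposited, had 43.6 FPKM in shFox2-2 and 39.7 FPKM in shFox2-1 cells, against 32.0 FPKM in shGFP and 33.9 FPKM in shLuc cells. The locus of Cdc23 overlaps that of Kif20a. DNA replication genes had 15 of 50 lower (30.0%), 3 after centring (6.00%, near the 5.42% of expressed entries). The regulators of mitotic transcription and entry had 5 of 33 lower (15.2%, near the 13.0% of expressed entries) and 0 after centring. Among the regulators Mybl2, a transcription factor of the complex that drives late cell cycle genes, had 114.6 FPKM in shFox2-2 and 142.0 FPKM in shFox2-1 cells, against 105.7 FPKM in shGFP and 98.8 FPKM in shLuc cells. Its shFox2-1 interval lay above both controls, and after centring both knockdown intervals did. The centred shares were 23.7% for the 38 genes, against 5.42% of expressed entries. Cdkn1a, the p53-driven brake on the cell cycle, had 8.79 FPKM in shFox2-2 and 10.7 FPKM in shFox2-1 cells, against 9.87 FPKM in shGFP and 7.20 FPKM in shLuc cells.

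Markers of cell state moved with the hairpins too. The summed level of 8 ES cell markers was 1295 FPKM in shFox2-2 and 1597 FPKM in shFox2-1 cells, against 1403 FPKM in shGFP and 1278 FPKM in shLuc cells. Of the 8, 5 were lower in shFox2-2 than in shFox2-1 cells, against 13.0% of expressed entries, and 4 after centring, against 5.42%. The 4 trophoblast markers (Cdx2, Elf5, Krt8 and Krt18) summed to 37.2 FPKM in shFox2-2 and 62.9 FPKM in shFox2-1 cells, against 36.4 FPKM in shGFP and 33.3 FPKM in shLuc cells. Only 2 of the 4 passed 1 FPKM, so the sums rest mainly on 2 genes. The 3 primed epiblast markers summed to 18.5 FPKM in shFox2-2 and 13.1 FPKM in shFox2-1 cells, against 24.8 FPKM in shGFP and 23.6 FPKM in shLuc cells. Neural markers, 4 of 4 expressed, summed to between 39.96 and 49.6 FPKM over the hairpins. Within this sum, shFox2-2 minus shFox2-1 ran between -0.61 and 0.87 on the log2(FPKM + 1) scale. Of the 4, 1 was called higher, against 1.97% of expressed entries, and 1 lower, against 13.0%. Fibroblast markers summed to between 4.26 and 4.85 FPKM, with 1 of 7 listed at 0 in every hairpin, and primitive endoderm markers, 1 of 5 expressed, to between 2.75 and 3.57 FPKM. The part of these markers in the differences between hairpins was not tested.

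The iCLIP list held 35639 clusters enriched in the tagged over the untagged library, 1 library each, so no value has a replicate. Of the 38 loci, 35 shared at least 1 base with a cluster (92.1%), against 54.7% of expressed entries. Within the same range of locus length and of level as the 38 genes, 75.3% of 4673 expressed entries had a cluster, with a median of 2 clusters, against a median of 3 for the 38. By length class, 13 of 15 loci between 5 and 20 kb had a cluster (86.7%), against 57.5% of expressed entries in the same range of level. The share was 91.7% against 83.5% between 20 and 40 kb, and 11 of 11 loci between 40 and 110 kb, against 91.5%. Cenpk, Spc25 and Aurkb had 0 clusters, and the 1 cluster in the locus of Kif20a carries the gene ID of its neighbour Cdc23.

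The 2 cytokinesis genes carried the most clusters, in loci of 57.2 kb (Anln) and 56.6 kb (Ect2). Expressed entries between 40 and 110 kb in the same range of level had a median of 5 clusters. Per 10 kb of locus Anln had 2.80 and Ect2 2.30 clusters, below Birc5 (4.60), Ccnb1 (3.87), Prc1 (3.67) and Incenp (3.32). Anln had 16 clusters with a summed coverage of 32779 in the tagged library, and its highest (mm9 chr9:22169830-22170457, minus strand) had a coverage of 15120 and a fold of 9.01 over the untagged library, both the authors' values. Ect2 had 13 clusters with a summed coverage of 22590, the highest (mm9 chr3:27047420-27047933, minus strand) at a coverage of 9377 and a fold of 6.45. Cenpf had 9 clusters, 7 of them with no coverage in the untagged library. Its highest cluster (mm9 chr1:191465780-191466257, minus strand) lay 96.8% along the locus, with a coverage of 8777 and a fold of 2.62. The highest clusters of Anln, Ect2 and Cenpf all lay below the list's median fold of 12.2, a median that includes the folds given as infinite. The highest clusters of Anln and Ect2 lay nearer the 5′ end, at 41.1% and 8.98% of the locus.

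Counts were lower in most other genes, and their relation to the levels after knockdown was not tested. Incenp had 9 clusters and Prc1 had 8, with the highest cluster of Prc1 (mm9 chr7:87459035-87459157, plus strand) at a coverage of 4947, and both genes were nearly level across the hairpins. Bub1b, Cenpi and Kif18a had 7 each, Kif4 had 6, and Bub1, Ccna2 and Kif23 had 5. Aurka and Top2a had 4, while Kif11, Mad2l1, Kif2c, Ccnb2 and Cdc20 had 1 each. The other genes with a cluster had 2 or 3: these were Cenpa, Cenpe, Cenph, Nuf2, Birc5, Ccnb1, Kif22 and Tpx2 with 3, and Ndc80, Bub3, Ttk, Plk1, Nek2, Nusap1 and Espl1 with 2. The 8 genes below both controls in shFox2-2 cells had a median of 4.5 clusters, between 1 and 16, and the other 30 a median of 3, between 0 and 13. Per 10 kb of locus the medians were 1.22 clusters for the 8 genes and 1.66 for the other 30. The 17 genes lower in shFox2-2 than in shFox2-1 cells had a median of 3 clusters, as did the other 21.

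Along the locus the clusters of the 38 genes lay much as all clusters did. Of 148 clusters listed under the genes themselves, 8.78% lay in the first 10% of the locus and 15.5% in the last 10%, against 9.96% and 14.5% of the 30552 clusters in expressed loci. Their median coverage was 403.5, against 375, and 43.2% had no coverage in the untagged library, against 44.2%. Whether a cluster lies in an exon, intron or untranslated region was not analysed here.

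**Figure D5:**
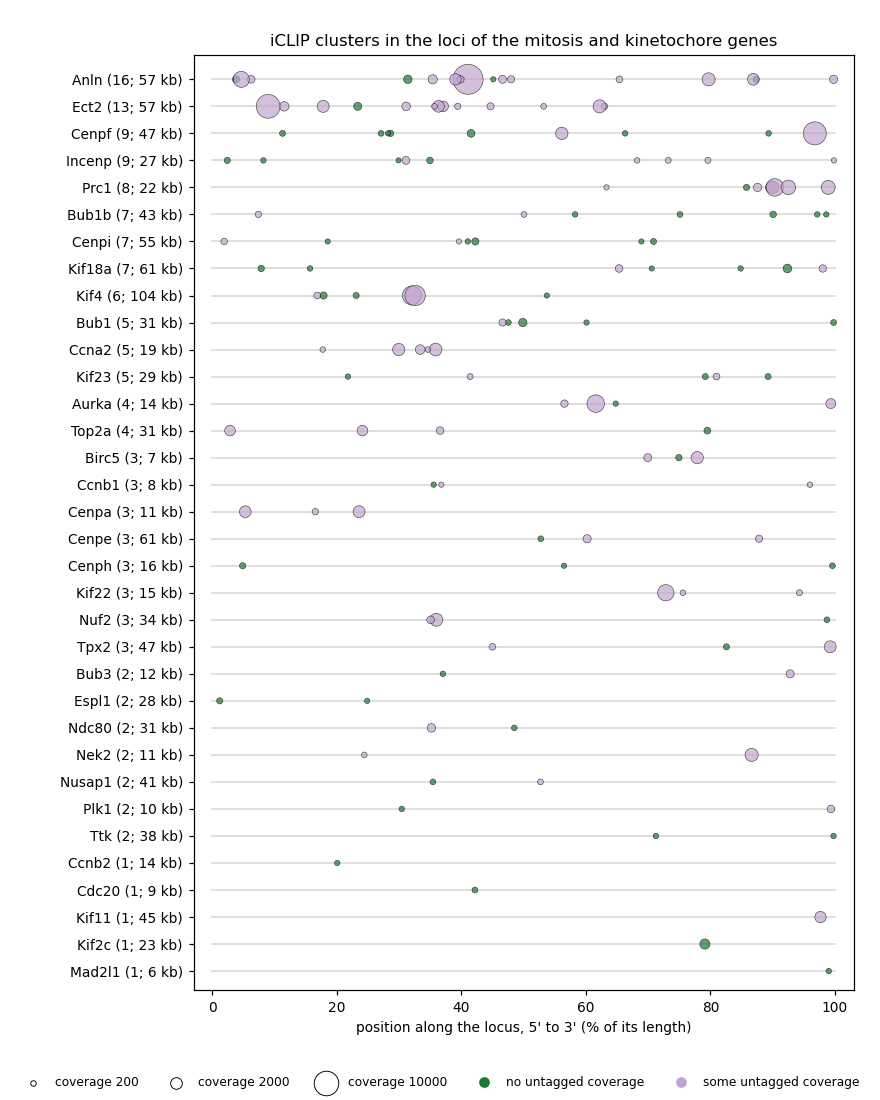
iCLIP clusters of the 34 genes with a cluster listed under their own gene ID, by position along the locus, 5′ to 3′, in % of its length. Each circle is 1 cluster with its area growing with coverage in the tagged library; green circles have no coverage in the untagged library, and the labels give the number of clusters and the locus length. Anln (16) and Ect2 (13) have the most, and the highest cluster of Cenpf sits near the 3′ end, at 96.8% of its locus.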

How the data were processed

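RNA-seq measured 8 libraries of V6.5 cells, 2 per hairpin, and iCLIP 2 libraries. The deposited expression table gives FPKM with a confidence interval per hairpin, made by the authors from reads aligned to mm9 with TopHat2 2.0 and Cufflinks 2.1.1, per the submitters' processing notes. The duplicates of a hairpin are pooled in these values, per the file headers, and no source used here states the annotation, the scaling or the use of strand. The cluster list holds, per cluster, the authors' coverage in the tagged library, their fold against the untagged one and their q-value; fold is given as infinite where the untagged library had no coverage.

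From the deposited FPKM, 105 entries with a failed status and 6477 at 0 in every hairpin were left out, and 20281 were tested. limma 3.58.1 in R 4.3.3, with a mean-variance trend, compared 2 knockdown with 2 control hairpins on log2(FPKM + 1), two-sided, with Benjamini-Hochberg adjustment over all entries; a fold change is on that scale and understates low genes. An exact permutation of 2 against 2 values cannot give a p under 0.333. The smallest unit is the hairpin, so the spread between duplicates is not seen. Calls by intervals (above or below without overlap) carry no p and were counted over 12632 entries with a mean of at least 1 FPKM. Centring used a shift per hairpin, its median log2(FPKM + 1) over those entries minus the mean of these medians. The shift was -0.10 in shFox2-2 and 0.09 in shFox2-1. For interval calls and differences, FPKM and bounds were divided by 2 to the power of the shift. For limma the shift was subtracted from log2(FPKM + 1). Clusters were assigned to loci by at least 1 shared base on either strand. Values in every hairpin are given for genes outside the control intervals, differing between hairpins, at either end of level or change, or with a cluster, and for the few others; in related lists, examples came from genes outside both controls. Other pseudocounts, filters, centring and leaving out each hairpin were tried. The genes, lists and tests were chosen with earlier results of these data known. RefSeq promoter windows (GRCm38.p6) were matched by symbol.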

Additional observations from a re-analysis of the deposited data

Results flagged for a closer look

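Cenpf was the 1 gene of the 38 whose knockdown hairpins lay on different sides of both control intervals: 6.77 FPKM in shFox2-2 and 17.1 FPKM in shFox2-1 cells, against 13.1 FPKM in shGFP and 13.2 FPKM in shLuc cells. The difference of shFox2-2 minus shFox2-1 was -1.22 on the log2(FPKM + 1) scale and -1.04 after centring, when shFox2-2 remained below both control intervals and shFox2-1 no longer lay above them. The difference was not tested, since each hairpin is 1 pooled value.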

How the results depend on the processing

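No paired analysis was possible because the deposited columns pool the duplicates of a hairpin and carry no replicate number. The limma count of 0 stayed 0 under 8 alternatives, 4 of which leave 1 hairpin in an arm, assumed to vary like the others; with 0 of 20281 entries called in all, this says nothing about stability. The genes with a cluster numbered between 26 and 35, the 26 with clusters of at least the median coverage (68.4%, against 39.7% of expressed entries). Centring changed the shFox2-1 count outside both controls to 1, the shFox2-2 against shFox2-1 count to 11 (2 higher, 9 lower) and the shGFP against shLuc count to 0. The count with both knockdown hairpins outside both controls was 8 by order of values alone. Leaving out 1 hairpin at a time gave 0 to 8 for that count, 3 to 7 for shFox2-1 outside the controls and 8 to 13 for shFox2-2. Shares over expressed entries were not computed for the counts without a control hairpin. With 1 hairpin left out, the median knockdown minus control difference ran between -0.21 and 0.12. The difference of Kif18a, -0.31, ran between -0.77 and 0.15, and that of Mad2l1, 0.20, between -0.16 and 0.56. Of the 17 differences between knockdown hairpins, 17 kept their sign after centring and 9 their call. The cause of these shifts was not tested. Without genes whose locus overlaps another entry, an alternative chosen after seeing the data, the shFox2-2 count was 7 and the count between knockdown hairpins 14. No share over expressed entries was computed for that alternative. Depth is unknown, and no gene's duplicates could be compared.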
